A study of Mus musculus with 14 samples.

Results

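The matrix proteases described here are the matrix metalloproteinases (MMPs) and the ADAMTS proteases, together with the tissue inhibitors of metalloproteinases (TIMPs), in the mouse lung after carbon fibre. They were taken by gene symbol, as every gene named Mmp, Timp or Adamts followed by a number. The rule finds 46 genes in the mouse reference table, of which 42 had a named probe on the array, out of 17187 named genes. No probe was named for Adamts6, Adamts17, Mmp1b or Mmp27. The 42 genes are 21 MMPs, 4 TIMPs and 17 ADAMTS proteases.

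Whole lungs of male C57BL/6N mice were collected 6 months after intratracheal administration, and total RNA of each sample was labelled with Cy3 and hybridised to a 1-colour Agilent array. The Ctrl group (3 arrays) received PBS vehicle without any particle. The fibre groups received 200 µg of carbon fibre per mouse: VCF, fibre before recycling (4 arrays), CCF, fibre after carbonization (3 arrays), and RCF, fibre after firing (4 arrays). Each array is an independent biological sample, as stated in the series' design; the age of the mice and the number of lungs per sample are not given in the sources used here. All 4 groups share strain, sex and time, and the 14 arrays lie on 4 slides, 3 of which hold at least 1 array of Ctrl.

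MMPs are zinc-dependent endopeptidases that are made as inactive proenzymes and that between them cleave collagens, elastin, proteoglycans and many cell surface and signalling proteins. ADAMTS proteases are secreted relatives with thrombospondin repeats: some cleave the large proteoglycans, some remove the end peptides of procollagen, and others are known for specific blood or matrix substrates. TIMPs bind the active site of MMPs and, in the case of TIMP3, of several ADAMTS and ADAM proteases as well. In the lung these enzymes are known from alveolar macrophages, neutrophils, fibroblasts and epithelium, and from emphysema and fibrosis.

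Of the MMP genes, 10 lie next to one another on chromosome 9 in the order Mmp13, Mmp12, Mmp1b, Mmp3, Mmp1a, Mmp10, Mmp8, Mmp27, Mmp20 and Mmp7. They are the interstitial collagenases, stromelysins, the macrophage elastase and others, and Mmp8, Mmp12 and Mmp13, to which much of the account below is given, belong to them. The proximal promoters of 5 of them are shown because 2 short motifs recur in this stretch of genes. The sequences are RefSeq's for GRCm38.p6, plus strand, from 110 bases before to 10 bases after the annotated start. Matches to TGANTCA and TATAAA, on either strand, are in capitals. TGANTCA, called the AP-1 letters below, allows any middle base and so is wider than the AP-1 element that Fos and Jun dimers bind.
Mmp13 (chr9:7272404-7272523): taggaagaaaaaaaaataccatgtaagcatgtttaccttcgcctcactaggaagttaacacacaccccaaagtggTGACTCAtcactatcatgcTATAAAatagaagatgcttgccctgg
Mmp12 (chr9:7347264-7347383): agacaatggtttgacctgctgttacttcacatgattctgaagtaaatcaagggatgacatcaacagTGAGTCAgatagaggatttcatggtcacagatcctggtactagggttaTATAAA
Mmp3 (chr9:7445712-7445831): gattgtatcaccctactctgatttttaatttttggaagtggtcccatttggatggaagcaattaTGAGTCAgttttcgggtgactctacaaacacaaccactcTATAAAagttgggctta
Mmp10 (chr9:7502232-7502351): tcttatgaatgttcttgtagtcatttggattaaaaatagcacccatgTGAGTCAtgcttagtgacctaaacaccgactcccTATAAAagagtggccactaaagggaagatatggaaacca
Mmp8 (chr9:7558319-7558438): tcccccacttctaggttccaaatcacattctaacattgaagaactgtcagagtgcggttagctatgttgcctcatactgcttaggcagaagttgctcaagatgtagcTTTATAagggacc

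The AP-1 letters begin 35 bases before the annotated start in Mmp13, 44 in Mmp12, 46 in Mmp3 and 63 in Mmp10. A RefSeq window of 300 bases was at hand for 29 of the 42 members, so that the rest, among them Mmp2, Mmp9 and Adamts5, were not searched. At least 1 window held the AP-1 letters in 7 of the 8 neighbouring genes of chromosome 9 that have a probe here, all but Mmp8, and in 0 of the 21 other members searched. Mmp12 and Mmp7 each have a second window without these letters, and the Mmp12 stretch printed is from the window that holds them. The match in Mmp20 read TGAATCA, and those in the other genes read TGACTCA or TGAGTCA. Among all genes with a window 8.97% had the AP-1 letters (7.81% of the 32851 windows). TATAAA was found in all 8 of these neighbouring genes and in 2 of the 21 others, against 15.7% of all genes (13.6% of windows). The 2 motifs do not overlap in the stretches printed. A match is a description of the letters and says nothing of use in these lungs. Of the genes that carry the letters, Mmp1a, Mmp7 and Mmp20 were not tested and Mmp10 was mostly not above background. The directions of these genes therefore cannot be compared as a set.

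Levels are given on the log2 scale, as the processed intensity of an array divided by the 75th percentile of that array, so that 0 is the 75th percentile of all probes and one unit is a doubling. Each gene was read at its brightest probe. Levels of different genes come from different probes and are not ranked. Probes that the scanner marked as well above background on fewer than 3 arrays were not tested, which left 31 members: 14 MMPs, all 4 TIMPs and 13 ADAMTS proteases. Well above background on all 14 arrays were 27 members, on some arrays 6 (Mmp7, Mmp10, Adamts3, Adamts12, Adamts18 and Adamts19) and on no array 9 (Mmp1a, Mmp16, Mmp20, Mmp21, Mmp24, Mmp28, Adamts13, Adamts16 and Adamts20). The last 9 have only a bound in every group, and the array number limits the precision of the rest.

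Several marker lists varied between arrays, some of them along with the groups. Marker scores, each the mean log2 difference of a list's genes from Ctrl, varied widely for heart, liver, thymus and fat. The score of cardiac muscle genes was between -1.84 and -1.45 on 4 arrays (Ctrl replicate 2, VCF replicate 4, CCF replicate 1 and RCF replicate 4) and between 0.14 and 2.22 on the other 10. The liver score reached 4.75 on both CCF replicate 2 and RCF replicate 1, and the thymus score 5.75 on CCF replicate 3. The neutrophil score was 1.19 on Ctrl replicate 1 and between -1.23 and 0.19 on the rest. The red blood cell score ran from -0.57 to 0.41 in Ctrl, 1.08 to 1.66 in VCF, 0.29 to 1.78 in CCF and 0.73 to 1.19 in RCF. All 5 of its genes were higher in each fibre group, 4, 3 and 3 of them at an unadjusted p under 0.05, and 0 passed. Over the 14 arrays the member most related to it was Mmp23 (r = -0.61, permutation p = 0.0219, adjusted p = 0.328), and its part in the members' differences was not tested. The 7 genes of alveolar epithelium and the 11 of alveolar macrophages were well above background on all 14 arrays, as the tissue label requires. In whole lung, fewer cells of a type and less RNA per cell cannot be told apart.

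No member passed the test in any comparison. In VCF against Ctrl 0 of 31 members had an adjusted p under 0.05, where 0.0102% of the 29271 probes tested did. In CCF against Ctrl and in RCF against Ctrl 0 of 31 members and 0% of probes passed. In the mean of the 3 fibre groups against Ctrl 0 of 31 members passed, against 0.00342% of probes. All p-values are from limma, with Benjamini-Hochberg adjustment over all probes tested. The smallest adjusted p of any member was 0.469, that of Timp1 in VCF. Differences below are therefore values with their errors, not changes.

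At an unadjusted p under 0.05, VCF against Ctrl had 2 members lower, Timp1 and Mmp12 (6.45%, against 2.79% of all genes), and 0 higher, against 2.62%. In CCF against Ctrl, Timp1 alone was lower (3.23%, against 3.12%) and 0 were higher, against 2.52%. In RCF against Ctrl, Timp1, Mmp13 and Mmp8 were lower (9.68%, against 3.03%) and 0 were higher, against 3.07%. In the mean of the fibre groups, Timp1 was lower, against 2.87% of all genes, and Adamts1 higher, against 2.92%. By direction alone, 12 of 31 members were above 0 in VCF (45.8% of all genes were), 19 in CCF (41.3% of all genes), 14 in RCF (49.7%) and 16 in the mean of the fibre groups (43.9%). The median difference of the 31 members was -0.037 in VCF, 0.036 in CCF and -0.047 in RCF, where the medians of all genes were -0.020, -0.042 and -0.0018. In the mean of the fibre groups 0 members were apart from Ctrl on all arrays in either direction, against 0.449% of genes higher and 0.373% lower. The median size of the difference, whatever its sign, was 0.26, 0.16 and 0.28 for members and 0.13, 0.14 and 0.14 for all genes. The fibre groups share the Ctrl arrays, so that their 3 comparisons are not independent of one another.

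**Figure D1:**
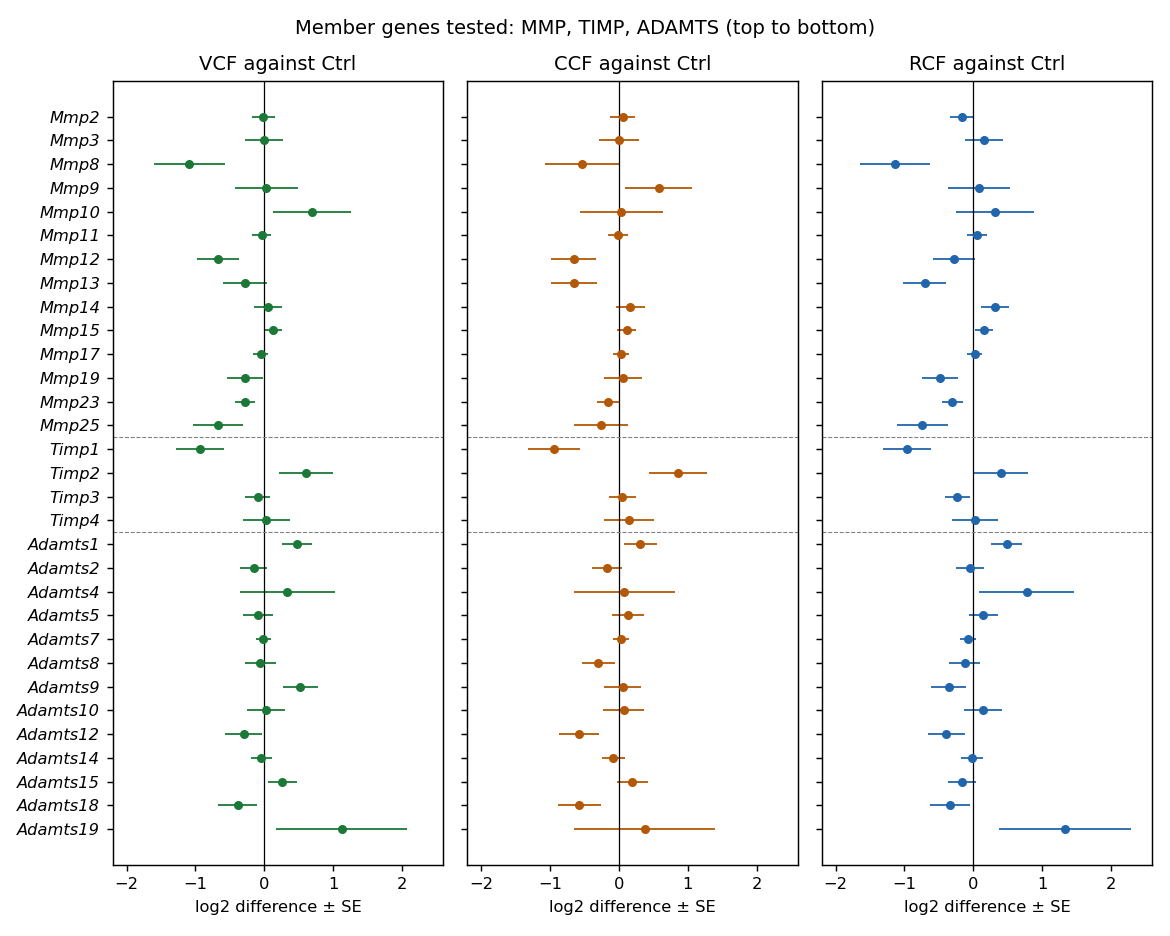
Differences of the 31 tested members from Ctrl on the log2 scale (horizontal axis) in VCF, CCF and RCF, each point the difference of group means and each bar its standard error, with MMPs, TIMPs and ADAMTS proteases separated by dashed lines. Timp1 lies between -0.96 and -0.93 in all 3 panels, Mmp8 and Mmp12 lie below 0 and Adamts1 and Timp2 above 0 in all 3; none of these passed the test, and Mmp10, Adamts12, Adamts18 and Adamts19 were below background on part of the arrays.

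The inhibitors come first, because the member with the smallest p in each fibre group was one of them. Timp1 encodes an inducible secreted inhibitor of most soluble MMPs that is raised in many injured tissues. Its level was 3.103, 3.24 and 2.03 on the Ctrl arrays. It was 1.79, 1.36, 2.14 and 2.15 in VCF, 1.69, 1.48 and 2.38 in CCF, and 1.71, 1.49, 1.59 and 2.55 in RCF. All 11 fibre arrays were below the Ctrl mean of 2.79 ± 0.66 (SD, n = 3), yet each fibre group overlapped with Ctrl because Ctrl replicate 3 was low. The difference from Ctrl was -0.93 (SE 0.35, adjusted p = 0.469) in VCF, -0.94 (SE 0.37, adjusted p = 0.725) in CCF and -0.96 (SE 0.35, adjusted p = 0.839) in RCF. For the mean of the fibre groups it was -0.94 (SE 0.30, adjusted p = 0.597), or 1.92-fold lower. A second, dimmer Timp1 probe differed by -0.84, -0.57 and -0.96 in the same order.

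The Timp1 difference was not the same on every slide. On slide 1, which holds Ctrl replicate 3, it was 0.11 in VCF, 0.35 in CCF and -0.32 in RCF. On slide 3, which holds Ctrl replicate 1, the values were -1.75, -1.41 and -1.51, and on slide 2, which holds Ctrl replicate 2 and no CCF array, they were -1.09 in VCF and -0.69 in RCF. With the slide as a block the differences were -0.82, -0.66 and -0.85. The Timp1 level also moved with the score of monocyte and interstitial macrophage genes over the 14 arrays (Pearson r = 0.71, permutation p = 0.00381, adjusted p = 0.197; Spearman rho = 0.82, permutation p = 0.00054, adjusted p = 0.0825). Without the 2 arrays farthest from the median score, r was 0.89, and with slide means removed it was 0.62. Of the 7 genes of that score 7 were lower in VCF, 4 in CCF and 6 in RCF, and all 7 were well above background on every array. The score ran from -0.25 to 0.15 in Ctrl, -0.73 to -0.09 in VCF, -0.65 to 0.56 in CCF and -0.43 to -0.06 in RCF, and its part in the Timp1 difference was not tested.

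Timp2 encodes a constitutive inhibitor that also takes part in the activation of proMMP2 at the cell surface. It had the opposite sign to Timp1. The Ctrl arrays read 5.07, 5.99 and 6.49. VCF read 6.37, 6.69, 6.31 and 6.47, CCF 6.35, 7.28 and 6.49, and RCF 6.50, 7.04, 6.13 and 5.36. The groups overlapped, with Ctrl replicate 1 the lowest array and CCF replicate 2 the highest. The difference was 0.61 (SE 0.39, adjusted p = 0.781) in VCF, 0.86 (SE 0.42, adjusted p = 0.763) in CCF and 0.41 (SE 0.39, adjusted p = 0.996) in RCF. Without Ctrl replicate 1 these were 0.22, 0.47 and 0.018.

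Timp3, an inhibitor that stays bound to the matrix, read 5.66, 5.33 and 5.74 in Ctrl. It read 5.62, 5.50, 5.41 and 5.38 in VCF, 5.73, 5.87 and 5.27 in CCF, and 5.40, 5.62, 5.41 and 4.95 in RCF. Every group overlapped with Ctrl, and only RCF replicate 4 lay well below the rest. Timp4, an inhibitor best known from heart and vessels, read -1.96, -1.24 and -1.55 in Ctrl, -0.58, -1.71, -2.09 and -1.83 in VCF, -1.92, -1.19 and -1.20 in CCF, and -1.26, -1.90, -1.26 and -1.81 in RCF. The group means of Timp4 lay between -1.58 and -1.44 with SDs of 0.34 to 0.67, so that the groups could not be separated. Timp4 did move with the score of 4 airway epithelium genes (r = 0.87, permutation p = 8e-05, adjusted p = 0.0186; rho = 0.81, permutation p = 0.00071, adjusted p = 0.0825). Without the 2 farthest arrays r was 0.80, and with slide means removed 0.90.

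**Figure D2:**
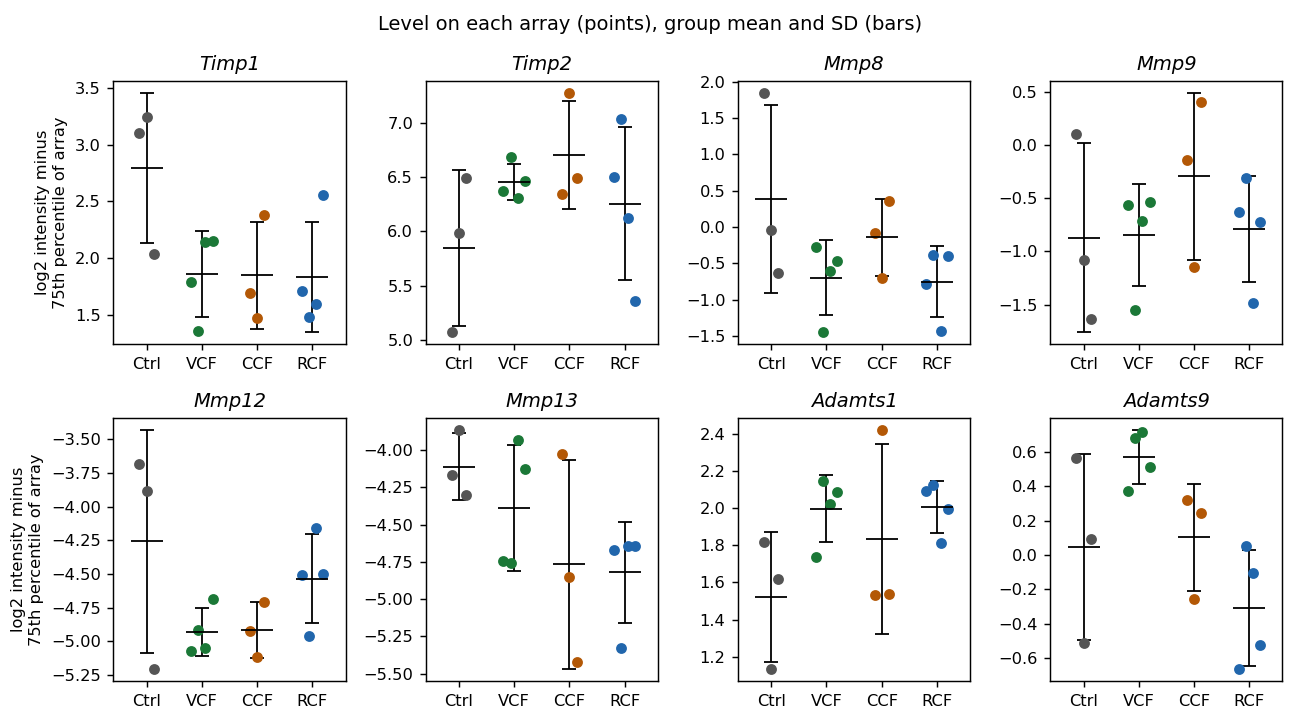
Level of 8 members on each array (points, log2 processed intensity minus the 75th percentile of the array) in Ctrl, VCF, CCF and RCF, with the group mean and SD as bars. The 11 fibre arrays of Timp1 lie below the Ctrl mean of 2.79, Ctrl replicate 1 stands alone at 1.85 for Mmp8, and the RCF arrays of Adamts9 (at most 0.05) lie below all VCF arrays (at least 0.37).

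The collagenases open the fibrillar collagens, and 2 of them, Mmp8 and Mmp13, were tested. Mmp8, the neutrophil collagenase, is stored in neutrophil granules. It read 1.85, -0.04 and -0.63 in Ctrl, -0.28, -1.45, -0.61 and -0.46 in VCF, -0.08, -0.69 and 0.36 in CCF, and -0.79, -0.39, -1.43 and -0.40 in RCF. One array, Ctrl replicate 1, stood far above all others, and the remaining Ctrl arrays lay within the range of the fibre groups. The difference was -1.09 (SE 0.51, adjusted p = 0.618) in VCF, -0.53 (SE 0.55, adjusted p = 0.902) in CCF and -1.14 (SE 0.51, adjusted p = 0.932) in RCF. Without Ctrl replicate 1 these were -0.36, 0.20 and -0.41, so that the value rested on that array and the sign in CCF turned.

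That array was also the one with the high neutrophil score. Over the 14 arrays Mmp8 and the score of 10 neutrophil genes, all well above background on every array, had r = 0.84 (permutation p = 0.00173, adjusted p = 0.174) and rho = 0.37 (adjusted p = 0.734). Without the 2 farthest arrays, Ctrl replicate 1 and RCF replicate 3, r was 0.36, so the relation rests on those arrays. The score ran from -0.79 to 1.19 in Ctrl, -0.82 to -0.38 in VCF, -0.51 to 0.19 in CCF and -1.23 to -0.48 in RCF, and 9, 6 and 9 of the 10 genes were lower in VCF, CCF and RCF. Its part in the Mmp8 difference was not tested. Mmp25, a membrane-anchored MMP of leukocytes, and Mmp8 formed the only one of 465 pairs of members that passed (r = 0.89, permutation p = 5e-05, adjusted p = 0.0232), though not by rank (rho = 0.83, adjusted p = 0.237). Without Ctrl replicate 1 and CCF replicate 3, r was 0.70, and with slide means removed 0.93. Mmp25 itself, named after its values were seen, differed by -0.67 (SE 0.37, adjusted p = 0.702) in VCF, -0.26 (SE 0.39, adjusted p = 0.947) in CCF and -0.74 (SE 0.37, adjusted p = 0.955) in RCF, and without Ctrl replicate 1 by -0.24, 0.17 and -0.31.

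Mmp13, the collagenase of bone and of remodelling tissue, read -4.17, -3.86 and -4.30 in Ctrl, -4.75, -4.75, -3.94 and -4.13 in VCF, -4.03, -4.85 and -5.42 in CCF, and -4.67, -5.33, -4.64 and -4.64 in RCF. All RCF arrays were below all Ctrl arrays, whereas VCF and CCF overlapped with Ctrl. The difference was -0.28 (SE 0.31, adjusted p = 0.915) in VCF, -0.65 (SE 0.34, adjusted p = 0.774) in CCF and -0.71 (SE 0.31, adjusted p = 0.928) in RCF. With another background correction (normexp) the VCF value was 0.0097. The probe is dim, and on the slides that hold Ctrl the RCF difference was -0.37, -0.78 and -0.47. A second member had RCF apart from Ctrl: Mmp23, a small membrane MMP of uncertain substrates, which was named after its values were seen. It read 0.54, 0.20 and 0.45 in Ctrl and 0.13, 0.03, 0.06 and 0.13 in RCF, a difference of -0.30 (SE 0.15, adjusted p = 0.955). These are 2 of 31 members lower without overlap (6.45%), against 4.71% of all genes, and 0 were higher without overlap, against 4.78%.

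The gelatinases, which cleave denatured collagen and basement membrane collagen, had no group apart from Ctrl. Mmp2, made by fibroblasts, read 0.46, 0.12 and 0.07 in Ctrl, 0.14, 0.03, 0.34 and 0.31 in VCF, 0.33, -0.08 and 0.58 in CCF, and -0.10, -0.02, 0.02 and 0.29 in RCF, with overlap between all groups. Mmp9, made by neutrophils and macrophages, read 0.10, -1.08 and -1.64 in Ctrl, -0.57, -1.55, -0.72 and -0.54 in VCF, -0.14, -1.15 and 0.40 in CCF, and -0.63, -0.31, -1.48 and -0.73 in RCF. Ctrl replicate 1 and CCF replicate 3 were the highest for Mmp9, and the spread within Ctrl covered every fibre array but CCF replicate 3. The CCF difference of Mmp9 was 0.58 (SE 0.49, adjusted p = 0.869), with a second probe at 0.37. It was 0.19 without Ctrl replicate 3, 0.23 without CCF replicate 3, 1.06 without Ctrl replicate 1 and 1.003 without CCF replicate 2.

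Mmp12, the macrophage elastase, is the MMP most tied to alveolar macrophages and to smoke-induced emphysema in mice. It read -3.68, -3.89 and -5.20 in Ctrl, -5.07, -4.91, -5.05 and -4.68 in VCF, -4.92, -5.12 and -4.71 in CCF, and -4.51, -4.96, -4.16 and -4.50 in RCF. The pair of high Ctrl arrays lay above every fibre array, and Ctrl replicate 3 lay below every one, so that each group overlapped. The difference was -0.67 (SE 0.31, adjusted p = 0.600) in VCF, -0.66 (SE 0.33, adjusted p = 0.766) in CCF and -0.28 (SE 0.31, adjusted p = 0.996) in RCF. Without Ctrl replicate 1 these were -0.38, -0.37 and 0.011. Over the 14 alternatives that do not leave out a single array, the Mmp12 difference ran from -0.82 to -0.036 in VCF. It ran from -0.75 to -0.48 in CCF and from -0.32 to -0.048 in RCF. Like that of Mmp13, the Mmp12 probe is dim. On slide 1, with the low Ctrl array, the Mmp12 difference was 0.15 in VCF, 0.50 in CCF and 0.69 in RCF. On slide 2 it was -0.80 in VCF and -0.62 in RCF, and on slide 3 it was -1.23, -1.24 and -0.48 in VCF, CCF and RCF.

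All 11 alveolar macrophage genes were lower than in Ctrl in each fibre group, with 4, 7 and 3 of them at an unadjusted p under 0.05 in VCF, CCF and RCF and 0 past the adjusted threshold. Their score ran from -0.09 to 0.05 in Ctrl, -0.44 to -0.20 in VCF, -0.68 to -0.36 in CCF and -0.30 to -0.16 in RCF, without overlap with Ctrl. Mmp12 followed this score with r = 0.58 (permutation p = 0.0298, adjusted p = 0.364) and rho = 0.46 (adjusted p = 0.579). With group means removed r was 0.32. Mmp13 followed it with r = 0.67 (permutation p = 0.00868, adjusted p = 0.288) and rho = 0.71 (adjusted p = 0.241). The part of this score in either difference was not tested.

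The stromelysin Mmp3, which also activates other proMMPs, read 2.63, 2.62 and 1.97 in Ctrl, 2.41, 2.39, 2.03 and 2.76 in VCF, 2.87, 2.65 and 1.71 in CCF, and 2.40, 2.36, 2.85 and 2.65 in RCF, with overlap between all groups. Mmp10, the other stromelysin, was not well above background on any Ctrl or CCF array. It was on 2 of 4 VCF arrays and 1 of 4 RCF arrays, so that most of its readings are not above background and no size is given. Mmp7, matrilysin of epithelium, was well above background on 2 of 4 RCF arrays and on no other, and it was not tested.

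Among the membrane-type MMPs, Mmp14 activates proMMP2 at the cell surface and cleaves collagen itself. It read 1.99, 2.72 and 2.31 in Ctrl, 2.04, 2.44, 2.23 and 2.89 in VCF, 2.62, 2.42 and 2.48 in CCF, and 2.79, 2.54, 2.62 and 2.67 in RCF. All 4 RCF arrays were above the Ctrl mean of 2.34 ± 0.37 (SD, n = 3), within reach of Ctrl replicate 2, and the difference was 0.32 (SE 0.20, adjusted p = 0.987), with a second probe at 0.033. Mmp15, another membrane-type MMP, read 0.50, 0.24 and 0.70 in Ctrl, 0.72, 0.61, 0.46 and 0.64 in VCF, 0.54, 0.49 and 0.74 in CCF, and 0.61, 0.72, 0.49 and 0.71 in RCF. Its groups overlapped, and the mean of the fibre groups differed by 0.13 (SE 0.11, adjusted p = 0.871). Mmp19, a secreted MMP of macrophages and vessels, read -3.67, -4.18 and -4.61 in Ctrl, -4.44, -4.24, -4.80 and -4.26 in VCF, -3.49, -4.53 and -4.26 in CCF, and -4.84, -4.62, -4.41 and -4.68 in RCF. Of the 4 RCF arrays, all but replicate 3 lay below the lowest Ctrl array, and replicate 3 kept the groups overlapping. The remaining tested MMPs, Mmp11 and Mmp17, had group means that spanned 1.88 to 1.97 and -1.69 to -1.61.

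**Figure D3:**
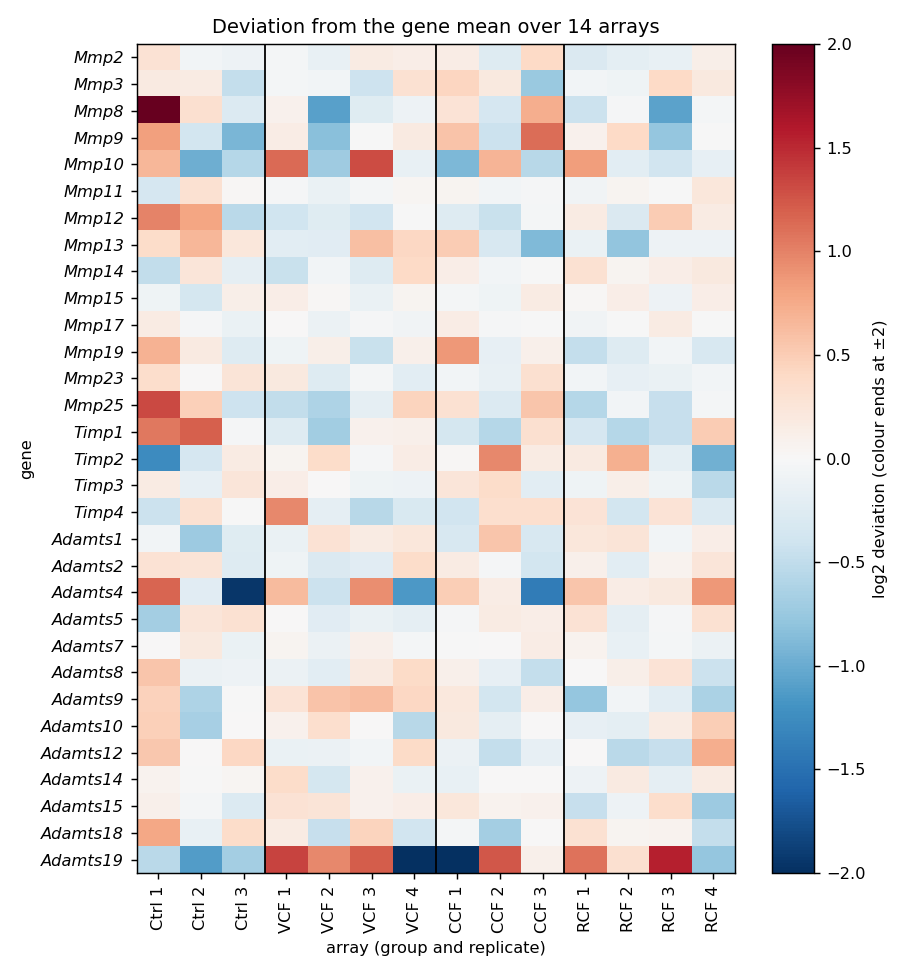
Deviation of each of the 31 tested members (rows) from its own mean over the 14 arrays (columns, ordered by group), in log2 units from blue (lower) to red (higher). Ctrl replicate 1 is high for Mmp8, Mmp25 and Timp1 and low for Timp2. Within the fibre groups Adamts19 is lowest on VCF replicate 4, CCF replicate 1 and RCF replicate 4.

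Of the ADAMTS proteases that cleave aggrecan and versican, Adamts1 was above the Ctrl mean on every fibre array. Adamts1 also restrains vessel growth and responds early to injury. It read 1.81, 1.14 and 1.62 in Ctrl, 1.74, 2.14, 2.02 and 2.08 in VCF, 1.54, 2.42 and 1.54 in CCF, and 2.09, 2.12, 1.81 and 1.99 in RCF. The Ctrl mean was 1.52 ± 0.35 (SD, n = 3), and 4 of the 11 fibre arrays, VCF replicate 1, CCF replicates 1 and 3 and RCF replicate 3, were no higher than Ctrl replicate 1. The difference was 0.47 (SE 0.22, adjusted p = 0.618) in VCF, 0.31 (SE 0.24, adjusted p = 0.854) in CCF and 0.48 (SE 0.22, adjusted p = 0.934) in RCF. For the mean of the fibre groups it was 0.42 (SE 0.19, adjusted p = 0.739), and the second probe differed by 0.36, 0.30 and 0.37 in the 3 groups. Within slides the Adamts1 difference in VCF was 0.40, 0.95 and 0.33 on slides 1, 2 and 3, while in CCF it was below 0, at -0.079 on slide 1 and -0.28 on slide 3. In RCF it was 0.47, 0.86 and -0.0016 on slides 1, 2 and 3. Without CCF replicate 2 the CCF value was 0.014.

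Adamts9, a protease of versican and of the vessel wall, was the member with the smallest p between fibre groups. It read 0.57, -0.52 and 0.09 in Ctrl, 0.37, 0.68, 0.72 and 0.51 in VCF, 0.32, -0.26 and 0.25 in CCF, and -0.66, 0.05, -0.10 and -0.52 in RCF. Every VCF array was above every CCF and RCF array, and Ctrl overlapped with all 3. RCF differed from VCF by -0.88 (SE 0.23, adjusted p = 0.683), or 1.84-fold lower, and CCF from VCF by -0.47 (SE 0.25, adjusted p = 0.880). Against Ctrl, VCF differed by 0.52 (SE 0.25, adjusted p = 0.635), by 0.24 without Ctrl replicate 2 and by 0.78 without Ctrl replicate 1. The RCF against VCF value lay between -1.002 and -0.76 when each array was left out in turn and was -0.88 with the slide as a block.

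Adamts4, an aggrecanase induced by inflammatory cytokines, read -3.48, -4.86 and -6.59 in Ctrl, -4.01, -5.06, -3.71 and -5.78 in VCF, -4.15, -4.49 and -6.04 in CCF, and -4.08, -4.49, -4.44 and -3.77 in RCF. It was the most scattered member in Ctrl (SD 1.56) and in no group left that range. Adamts5, the main aggrecanase of mouse cartilage, read 0.17, 1.10 and 1.17 in Ctrl, 0.87, 0.63, 0.72 and 0.68 in VCF, 0.84, 1.03 and 0.99 in CCF, and 1.15, 0.68, 0.83 and 1.17 in RCF. All of its fibre arrays but RCF replicate 4 lay inside the Ctrl range. Adamts15, a relative of these named after its values were seen, read 1.69, 1.67, 1.497 and 1.54 in VCF and 0.94, 1.30, 1.76 and 0.68 in RCF, a difference of -0.43 (SE 0.19, adjusted p = 0.939) with overlap at RCF replicate 3.

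Adamts2, which removes the aminoterminal propeptide of fibrillar procollagens, read 3.95, 3.93 and 3.40 in Ctrl, 3.57, 3.38, 3.44 and 4.03 in VCF, 3.83, 3.64 and 3.30 in CCF, and 3.76, 3.46, 3.74 and 3.90 in RCF. The groups overlapped throughout. A second, dimmer Adamts2 probe differed from Ctrl by -0.17 in VCF, 0.47 in CCF and 0.47 in RCF. The brightest probe differed by -0.16, -0.17 and -0.047, so that the sign was not the same in CCF and RCF. Adamts3, a relative with the same kind of substrate, was well above background on 1 array alone, CCF replicate 2, at -4.23, where the other 13 arrays read at most -7.23; it was named after its values were seen and was not tested. Adamts12, a protease of cartilage matrix, was well above background on 1 array each of Ctrl, VCF and RCF and on none of CCF. It read -6.66, -7.19 and -6.78 in Ctrl and -7.32, -7.67 and -7.36 in CCF, so that most of these readings are not above background and no size is given for the difference (adjusted p = 0.766). By these readings it was the only one of 31 members lower in CCF without overlap (3.23%), against 6.16% of all genes, and 0 were higher, against 3.39%. In VCF against Ctrl 0 members were apart from Ctrl in either direction, where 3.27% of genes were lower and 3.31% higher without overlap.

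Adamts19, an ADAMTS protease known from heart valve development, had the widest spread of the tested members in CCF and VCF. It read -6.19, -6.77 and -6.33 in Ctrl, -4.30, -4.69, -4.44 and -7.79 in VCF, -8.21, -4.41 and -5.55 in CCF, and -4.56, -5.33, -4.10 and -6.42 in RCF. High and low arrays stood side by side in VCF and CCF, and the group means differed by 1.12 (SE 0.95, adjusted p = 0.867) in VCF and 1.33 (SE 0.95, adjusted p = 0.991) in RCF. The lowest arrays were those with the low cardiac muscle score. On those 4 arrays Adamts19 read -8.21 to -6.42, and on the other 10 it read -6.33 to -4.10. Because the scores fall in separate clusters, the relation was measured within the 10 arrays, where r was 0.75 (permutation p = 0.0139) and rho 0.80 (permutation p = 0.00777). Without the 2 farthest arrays r was 0.85. The relation and the cut between the clusters were both taken from these same arrays. The p-values within the 10 arrays, here and for the second probe below, are unadjusted and describe a relation already picked.

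A second, dimmer Adamts19 probe, well above background on 2 of these 10 arrays, had r = 0.62 (permutation p = 0.0567) there. Over all 14 arrays, 1 of 465 relations between a member and a marker list passed by both measures. It was that of the brightest Adamts19 probe with the cardiac muscle score (permutation, adjusted p = 0.00465 for Pearson and 0.0093 for Spearman). The pass takes in the gap between the 4 arrays with a low score and the other 10, so it adds nothing to the values within the 10. All 6 cardiac muscle genes, among them Myl7 and Nppa of the atrium, were well above background on every array. Between 5 and 6 of the 6 were higher in each fibre group than in Ctrl. The source of these transcripts is not given, and the part of their score in the Adamts19 difference was not tested.

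**Figure D4:**
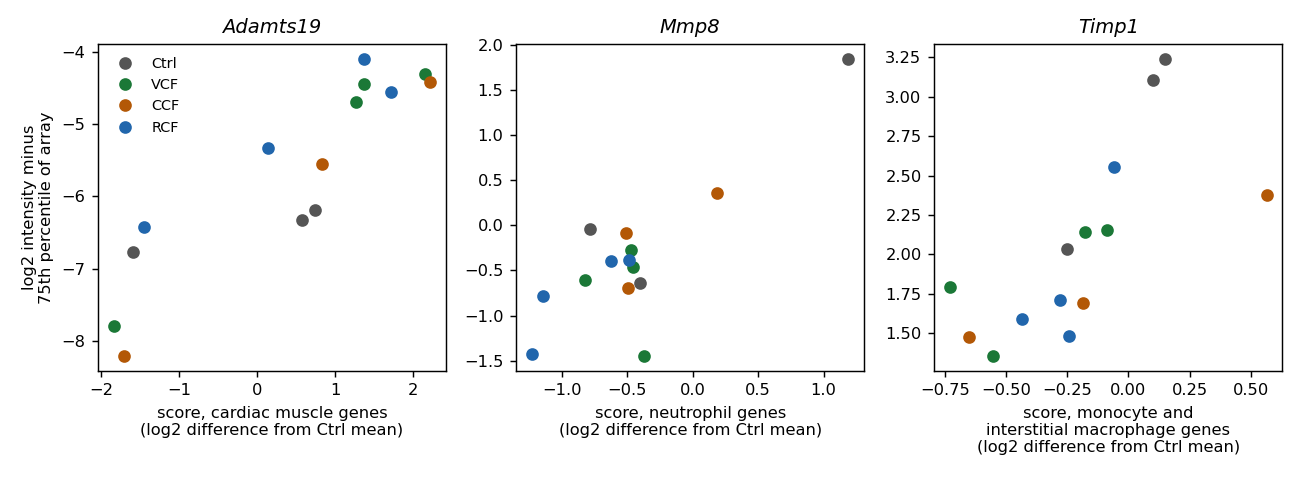
Levels of Adamts19, Mmp8 and Timp1 (vertical axes, log2 scale) against the scores of cardiac muscle, neutrophil, and monocyte and interstitial macrophage genes (horizontal axes, mean log2 difference from Ctrl), 1 point per array, coloured by group. The 4 arrays with a low cardiac score read at most -6.42 for Adamts19, Ctrl replicate 1 stands alone at the upper right for Mmp8, and Ctrl replicates 1 and 2 have the highest Timp1 levels.

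Between the fibre groups no member passed: 0 of 31 in CCF against VCF, in RCF against VCF and in RCF against CCF, with 0% of probes in each. At an unadjusted p under 0.05, RCF against VCF had 2 members lower, Adamts9 and Adamts15 (6.45%, against 1.28% of all genes), and 0 higher, against 1.77%. CCF against VCF had 0 lower, against 2.85%, and 0 higher, against 1.02%. RCF against CCF had 0 lower, against 2.69%, and 0 higher, against 5.15%. The smallest p in RCF against CCF was that of Mmp19, which differed by -0.54 (SE 0.26, adjusted p = 0.646) and by 0.30 with normexp background correction. In CCF against VCF 1 member, Adamts9, was lower without overlap, against 2.62% of genes, and 0 were higher, against 1.24%. In RCF against VCF Adamts9 was again the 1 member lower without overlap, against 1.26%, and 0 were higher, against 1.58%. In RCF against CCF 0 were lower, against 3.09%, and 0 higher, against 6.94%. Above 0 were 17 of 31 members in CCF against VCF (47.2% of all genes), 15 in RCF against VCF (52.6%) and 16 in RCF against CCF (55.4%). The median difference of the 31 members was 0.015, -0.0012 and 0.010 in the same order.

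The proteins around the family were read from lists. Of 19 tested pericellular and plasmin system genes, 0 passed in any fibre group. Plat, tissue plasminogen activator, differed by -0.45 (SE 0.19, adjusted p = 0.915) in RCF and by -0.39 (SE 0.16, adjusted p = 0.712) in the mean of the fibre groups. Serpinb2, an inhibitor of plasminogen activators in macrophages, differed by 1.51 (SE 0.67, adjusted p = 0.925) in RCF. Of 9 ADAM membrane proteases 0 passed, with Adam17, the sheddase of TNF, at 0.77 (SE 0.23, adjusted p = 0.637) and Adam8, an ADAM of leukocytes, at -0.67 (SE 0.26, adjusted p = 0.718) in CCF. Of 4 ADAMTS-like proteins, which lack the protease domain, 0 passed, and their median was -0.044 in VCF, 0.13 in CCF and -0.0091 in RCF.

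Cathepsins and cystatins, the lysosomal proteases and their inhibitors, were lower than in Ctrl in 12 of 12 genes in VCF, 11 in CCF and 10 in RCF. Of all genes, 45.8%, 41.3% and 49.7% were above 0 in the same order. The medians of the list were -0.21, -0.18 and -0.20, and 0 passed. The alveolar macrophage score given above was also lower in each fibre group, and its part in these differences was not tested. Ctsh differed by -0.33 (SE 0.13, adjusted p = 0.899) in RCF. The 3 tested genes of neutrophil serine proteases and their inhibitor had medians of -0.44, -0.19 and -0.43, with 0 passing and with the neutrophil score as above. Of 17 substrate genes 0 passed, and 9, 12 and 9 of them were lower in VCF, CCF and RCF. Eln, elastin, differed by -0.88 (SE 0.28, adjusted p = 0.395) in VCF, -0.34 (SE 0.30, adjusted p = 0.880) in CCF and -0.76 (SE 0.28, adjusted p = 0.856) in RCF. Vcan, versican, differed by -0.996 (SE 0.40, adjusted p = 0.521) in VCF.

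Of the 10 members with more than 1 tested probe, the probes had the same sign in 5 in VCF, 9 in CCF and 7 in RCF against Ctrl. The genes that disagreed were Adamts2, Adamts5, Adamts7, Adamts10, Mmp9 and Mmp14. Adamts1, Timp1, Adamts8 and Mmp17 had the same sign at both probes in all 3 comparisons. Mmp8, Mmp12, Mmp13, Timp2 and Adamts9 were read from 1 tested probe each.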

How the data were processed

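Deposited were 1-colour Agilent scanner outputs, which per the file headers came from Feature Extraction 10.7.3.1 (the processed signal is the authors' background-subtracted intensity), and a value table whose deposited log2 values equal that signal minus the 75th percentile of each array. Here control spots (1639 on each array) and outlier-flagged spots (1649 over the 14 arrays together) were left out. Spots of a probe were averaged, and log2 intensity minus the 75th percentile was tested. Symbols came from RefSeq accessions: 24854 of 41174 probes were named. limma 3.58.1 (R 4.3.3) fitted 4 group means over 14 arrays on 29271 probes well above background on at least 3 arrays, with 10 residual and 2.39 prior degrees of freedom. Well above background means the scanner's own flag. A threshold of 0.05 was applied to adjusted p. Correlations used 100000 permutations, adjusted over 465 relations each, except those of Adamts19 within 10 arrays, which were not adjusted. The fit was tested on simulated data for VCF against Ctrl. It found 45 of 100 changes of 1 log2 unit and 83 of 100 changes of 2 units, and it called 2 unchanged probes. The simulated noise was independent between probes and arrays, without slide effects or differences in tissue. Changed probes were drawn from all probes tested, so these shares are not the chance of finding a change in a member.

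Each gene is read at its brightest probe. Values per array are given for the 3 members with the smallest p in each direction per comparison with Ctrl and a fixed panel of 16; list genes are named by the 2 smallest p in each direction per comparison with Ctrl, or fewer. Members, panel and lists were chosen with earlier results of these data known. Alternatives tried are the background correction, normalization, filter, slide, replicate number, weights and each array left out. Motifs were searched in RefSeq promoter windows. Protein sequences were not used here.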

Additional observations from a re-analysis of the deposited data

Results flagged for a closer look

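In the 62 sets of 1 tested member and 1 group of 4 arrays (VCF or RCF), 3 arrays stood apart by Dixon's criterion, and chance flags about 1 in 20 such sets. Adamts12 was at -6.82 on VCF replicate 4, where the nearest other VCF array read -7.25. Adamts19 was at -7.79 on VCF replicate 4, where the nearest other read -4.69; that array also had the lowest cardiac muscle score, -1.84. Mmp13 was at -5.33 on RCF replicate 2, where the nearest other read -4.67.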

How the results depend on the processing

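Under 28 alternatives, 14 of which leave out 1 array each, 0 members were called in any of the 7 comparisons, and the smallest adjusted p of the 46 differences followed was 0.176. Of 1278 alternative values 1271 kept their sign. Many of these differences were picked for a small p, and the alternatives reuse the same arrays, so kept signs are no independent check. With normexp background correction the median difference of members in CCF against Ctrl was -0.19, where the median of all genes was -0.10; Mmp13 in VCF was 0.0097, Adamts12 in VCF 0.052 and Mmp19 in RCF against CCF 0.30. The cause was not tested. Without VCF replicate 1, CCF replicates 2 and 3 and RCF replicate 1, which were high in liver, thymus or fat genes (an alternative chosen after seeing the data), Mmp13 in CCF was 0.085, which rests on the 1 CCF array left (CCF replicate 1) and is no check of the group. With 1 array left out, Mmp8 in CCF ran from -1.04 to 0.20, Mmp25 in CCF from -0.70 to 0.17 and Mmp12 in RCF from -0.75 to 0.011, each highest without Ctrl replicate 1. Replicate numbers did not pair the samples: 13 same-numbered pairs of arrays on different slides had a median correlation of -0.10. Arrays on 1 slide resembled each other more: 6 same-numbered pairs had a median of 0.20 and 12 other pairs 0.11. With the slide as a block 0 members were called. A replicate block left 0 members called and gave -1.10, -0.94 and -1.13 for Timp1 in VCF, CCF and RCF. Members near background, such as Adamts12, Adamts18, Adamts19 and Mmp10, are limited by signal. Ctrl and CCF have 3 arrays each, which limits the comparisons that use them.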
